A study of Mus musculus with 16 samples.

Results

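The nuclear genes for the subunits of the 5 oxidative phosphorylation complexes were followed in the livers of mice that lack methylmalonyl-CoA mutase and of heterozygous controls, unfasted and fasted. A gene was taken by its symbol: Nduf followed by a, b, c, s or v and a number for complex I, Sdha to Sdhd for complex II, Uqcr for complex III, Cox4 to Cox8 for complex IV and Atp5 for complex V. This gave 81 of the 19938 genes measured, namely 35 of complex I, 4 of complex II, 8 of complex III, 17 of complex IV and 17 of complex V. Expression was measured on 1 Affymetrix Mouse Gene 1.0 ST array per liver, in male mice 4 months old, with 4 arrays in each of 4 groups. The controls were Mut +/- and the mutants Mut -/-, and every animal of either genotype carried the TgINS-MCK-Mut transgene, in which the muscle creatine kinase promoter drives the enzyme in muscle, so the mutants are a model without the enzyme in liver and with it in muscle. Heterozygous mice were fasted for 12 hours and mutants for 8 to 12 hours, so that in fasted animals genotype and length of the fast cannot be told apart. Mmut, the mutated gene, had a log2 level of 9.82 ± 0.11 (SD, n = 4) in unfasted heterozygotes, 8.04 ± 0.20 in unfasted mutants, 9.89 ± 0.15 in fasted heterozygotes and 8.09 ± 0.20 in fasted mutants, and all 8 mutant arrays lay below all 8 heterozygous arrays.

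Oxidative phosphorylation passes electrons from NADH (complex I) and succinate (complex II) through ubiquinone, complex III and cytochrome c to oxygen at complex IV, and complex V, the ATP synthase, uses the resulting proton gradient to make ATP. Methylmalonyl-CoA mutase feeds the carbon of propionate into the citric acid cycle as succinyl-CoA, the precursor of the succinate that complex II oxidises. Liver mitochondria of patients and mice without the enzyme are known for abnormal structure and reduced respiratory chain activity, so transcript levels of the subunits are a natural measurement in this tissue, although they do not measure protein or activity.

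All values below are log2 RMA levels, and a difference of 0.5 on this scale is a 1.41-fold change. Differences are given with the standard error (SE) of a limma model of all 16 arrays, and a gene was called changed at a Benjamini-Hochberg adjusted p under 0.05 over all 19938 genes. Levels of different genes were not compared, because probe sets differ in brightness. In a piece of whole liver, fewer cells of a type and less RNA per cell cannot be told apart. The labels give 4 separate mice per group. Markers of hepatocytes (9 genes) averaged between 12.74 and 13.18 on every array, although 1 of them, Serpina1c, was called lower in mutants in both feeding states. The 11 pancreatic acinar markers averaged 6.67 to 6.92 on 15 arrays and 10.56 in unfasted mutant 1, where Cpa1 reached 12.29 and Ctrb1 12.64. The 6 white and brown adipocyte markers averaged 7.12 in fasted mutant 1 and 6.37 to 6.82 on the other arrays, where the second highest, 6.82, was fasted heterozygote 4. In fasted mutant 1, Ucp1 (7.57), Adipoq (6.43), Plin1 (8.12) and Retn (7.94) were the highest of all arrays, while Lep (6.11) lay within the range of the others, 5.98 to 6.2. Cidea was 6.54 there, and it was highest in fasted heterozygote 4 (7.96) and unfasted heterozygote 1 (7.06). Endothelial markers (8 genes) averaged 8.75 to 9.14 on heterozygous arrays and 9.29 to 9.67 on mutant arrays. Stellate cell markers (8 genes) averaged 8.44 to 8.61 and 8.66 to 9.11 in the same order. Macrophage markers (9 genes) averaged 8.75 to 9.33 in unfasted heterozygotes and 9.06 to 9.7 in unfasted mutants, which overlapped, and 8.77 to 9.29 and 9.54 to 9.92 in fasted ones. Of 2 erythroid markers, Alas2 was called lower in mutants in both feeding states. Between fasted genotypes Sox9 was lower (1 of 4 cholangiocyte markers) and Ms4a1 higher (1 of 6 lymphocyte markers) in mutants. Between unfasted genotypes S100a9 was higher in mutants (1 of 5 neutrophil markers). Of all genes, 7.94% were called between unfasted and 13.6% between fasted genotypes. The part of these markers in the subunit values was not tested.

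The subunits were nearly level across the 4 groups. Between unfasted mutants and heterozygotes, 1 of 81 subunit genes was called (Ndufb3, lower), while 7.94% of all genes were called (4.25% higher and 3.69% lower). Between fasted mutants and heterozygotes, 2 of 81 were called (Ndufc2 and Atp5g1, both higher), against 13.6% of all genes (8.62% higher and 5.01% lower). With fasting, 0 of 81 were called in heterozygotes, where 1.57% of all genes were (0.732% higher and 0.838% lower), and 0 of 81 in mutants, where 3.35% were (2.33% higher and 1.02% lower). At an unadjusted p under 0.05 in limma, 9 subunits passed in the unfasted genotype comparison, 7 in the fasted, 6 with fasting in heterozygotes and 5 with fasting in mutants. The shares of all genes at that threshold were 21.8%, 30%, 12.3% and 22.2% in the same order. No subunit was called in the test of whether the fasting response differed between genotypes, where 0.01% of all genes were called; at an unadjusted p under 0.05, 1 subunit passed and 11% of all genes did. Without unfasted mutant 1 the counts in the order unfasted genotype, fasted genotype, heterozygous fasting and mutant fasting were 1, 3, 0 and 0, beside 8.67%, 15.9%, 1.76% and 9.74% of all genes. Without fasted mutant 1 they were 1, 2, 0 and 0, beside 8.93%, 9.65%, 1.7% and 3.43%. Without fasted heterozygote 4 they were 1, 0, 0 and 0, beside 6.79%, 8.59%, 0.903% and 2.55%. Among genes brighter than the median, with 74 subunits, they were 1, 3, 0 and 0, beside 15.8%, 22.5%, 3.98% and 8.7% of those genes. After a second quantile normalization, 1 subunit was called higher between fasted genotypes and 2 lower, Ndufa1 (-0.27, adjusted p = 0.017, limma) and Cox7b (-0.15, adjusted p = 0.036), while 1411 of all genes were called higher and 1063 lower (1718 and 998 without it).

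The precision of these comparisons bounded most subunits within 0.5 of zero. That bound is wider than the largest fitted subunit difference, 0.4, and the called subunits Ndufb3, Ndufc2 and Atp5g1 lay within it too. The share of all genes within it was not counted. The 81 include dim genes, Ndufa4l2 (mean level 6.46) and the low isoforms named under complex IV, in which a change could be missed. The median SE of a subunit's difference was 0.08, and the median half-width of its 95% confidence interval was 0.16. In the unfasted genotype comparison the whole interval lay within 0.5 of zero for 79 of 81 subunits, the exceptions being Cox4i1 and Atp5k. In the fasted genotype comparison it did so for 79, with Uqcr11 and Atp5k as the exceptions. With fasting it did so for 78 in heterozygotes, without Ndufc1, Cox4i1 and Atp5k, and for 79 in mutants, without Cox8b and Atp5k. Arrays of the groups compared did not overlap for 3 subunits (3.7%) in the unfasted genotype comparison, against 12% of all genes. The share was 8.64% (7 subunits) in the fasted genotype comparison, against 23.7% of all genes. With fasting it was 8.64% (7 subunits) in heterozygotes against 10.5%, and 6.17% (5 subunits) in mutants against 10%.

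**Figure D1:**
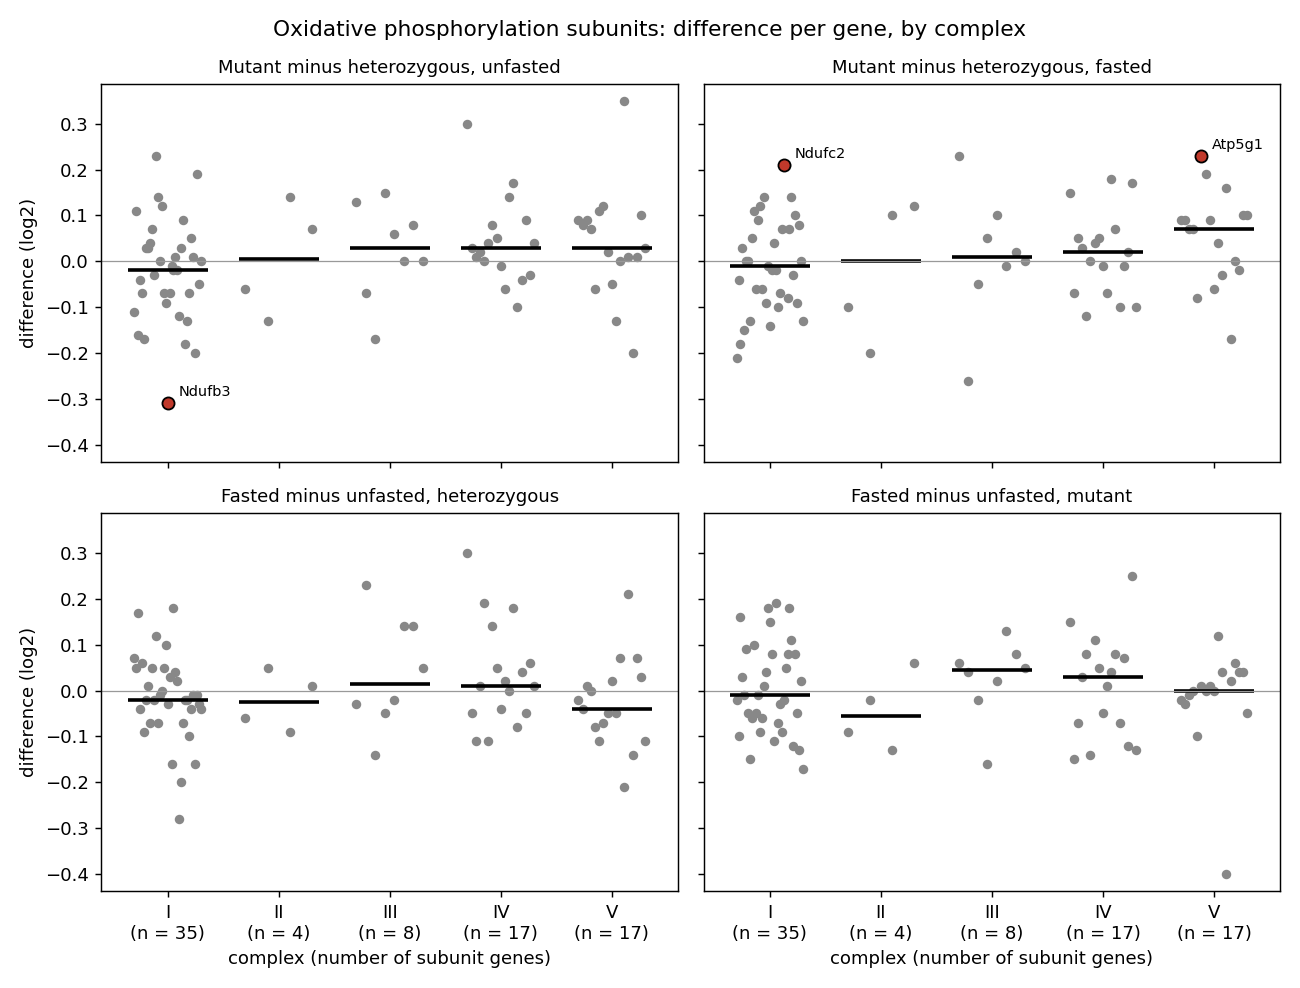
Each point is the log2 difference of 1 subunit gene in 1 of 4 comparisons, grouped by complex on the horizontal axis; bars are medians and filled red points passed the adjusted threshold. Complex medians lie close to 0 in each panel, and the red points are Ndufb3 in the unfasted and Ndufc2 and Atp5g1 in the fasted genotype comparison.

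Complex I, the NADH dehydrogenase, had median differences of -0.019 between unfasted and -0.011 between fasted genotypes, and of -0.016 and -0.014 with fasting in heterozygotes and mutants. The medians over all genes in the same order were 0.005, -0.022, 0.007 and -0.015. In the unfasted genotype comparison 15 of its 35 genes were higher and 20 lower in mutants, and in the fasted comparison 17 were higher and 18 lower. The symbol rule also places Ndufa4 and Ndufa4l2 here, although the Ndufa4 protein is known as a subunit of complex IV. Their unfasted genotype differences were 0.03 and 0.04. None of the 6 core subunits tested, which belong to the part that carries the flavin and the iron-sulfur clusters, was called in any comparison. Ndufv1, which binds NADH and the flavin, differed by 0.19 ± 0.08 between unfasted genotypes (adjusted p = 0.17, limma), and Ndufs8, an iron-sulfur subunit, by -0.20 ± 0.09 (adjusted p = 0.21, limma). Ndufs1, the largest iron-sulfur subunit, differed by 0.21 ± 0.10 between fasted genotypes (adjusted p = 0.19, limma). The 15 measured genes of the matrix arm held no called member in any comparison, and the 18 of the membrane arm held Ndufb3 and Ndufc2.

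Ndufb3, an accessory subunit of the membrane arm, was the only subunit called in unfasted mice. Its levels were 8.71, 8.66, 8.59 and 8.70 in unfasted heterozygotes. They were 8.42, 8.32, 8.28 and 8.40 in unfasted mutants. All 4 mutant arrays were below all 4 heterozygous arrays. Ndufb3 fell by 0.31 ± 0.07 (SE), a 1.24-fold change, with an adjusted p of 0.014 in limma. In fasted mice the levels were 8.70, 8.71, 8.46 and 8.69 in heterozygotes and 8.35, 8.47, 8.57 and 8.62 in mutants. Those groups overlapped, and the difference was -0.14 ± 0.07 (adjusted p = 0.20, limma). The test of the change in Ndufb3 difference between feeding states gave 0.17 ± 0.10 (adjusted p = 0.50, limma), so the states were not shown to differ. The unfasted call was kept when any of the 16 arrays was left out, with an adjusted p of at most 0.047.

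Ndufc2, another accessory subunit of the membrane arm, was called in fasted mice. It stood at 12.35, 12.34, 12.45 and 12.41 in fasted heterozygotes and at 12.54, 12.59, 12.54 and 12.70 in fasted mutants. The groups did not overlap, and Ndufc2 was higher in mutants by 0.21 ± 0.06 (SE), a 1.15-fold change (adjusted p = 0.031, limma). In unfasted mice the levels were 12.66, 12.54, 12.60 and 12.54 in heterozygotes and 12.74, 12.66, 12.48 and 12.57 in mutants, which overlapped. The fasted heterozygotes were the lowest of the 4 groups, with a fasting difference of -0.20 ± 0.06 in heterozygotes (adjusted p = 0.12, limma) and -0.02 ± 0.06 in mutants (adjusted p = 0.84). The call was lost without fasted mutant 2 or 4 or fasted heterozygote 1, 2 or 4, with adjusted p up to 0.086 and 0.061 without fasted heterozygote 4.

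Ndufa1, a membrane arm accessory subunit, had no overlap between fasted groups but was not called. It measured 9.54, 9.58, 9.57 and 9.54 in fasted heterozygotes and 9.24, 9.34, 9.46 and 9.37 in fasted mutants. The difference was -0.21 ± 0.07 (adjusted p = 0.068, limma), and it passed in 5 alternatives: without unfasted mutant 1 (adjusted p = 0.041), with array weights (0.04), after a second quantile normalization (0.017), without a variance trend (0.048) and among brighter genes (0.049). Ndufc1, an accessory subunit beside Ndufc2, had the lowest heterozygous fasting difference of complex I, at -0.28 ± 0.12 (adjusted p = 0.35, limma).

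Complex II, succinate dehydrogenase, is the enzyme of the citric acid cycle that sits in the chain, and none of its 4 genes was called in any comparison. Sdha, the flavoprotein that binds succinate, differed by -0.06 ± 0.06 between unfasted and -0.10 ± 0.06 between fasted genotypes. Sdhb, the iron-sulfur subunit, differed by -0.13 ± 0.12 and -0.20 ± 0.12. The membrane anchors had positive differences, Sdhc 0.14 ± 0.06 and 0.10 ± 0.06 and Sdhd 0.07 ± 0.06 and 0.12 ± 0.06. The lowest adjusted p among these 8 genotype tests was 0.20. With 2 genes on each side of zero, the median of complex II was 0.004 in both genotype comparisons. Its median with fasting in mutants was -0.058, and 0.027 without fasted mutant 1, in which the mean of the 4 genes was lowest of the 16 arrays.

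Complex III, the cytochrome bc1 complex, had no called gene among 8. Its core proteins Uqcrc1 and Uqcrc2 differed by 0.15 ± 0.08 and 0.06 between unfasted genotypes, and by 0.05 ± 0.08 and 0.10 between fasted genotypes. Uqcrfs1, the Rieske iron-sulfur protein, differed by 0.00 and -0.01. Between fasted genotypes the extremes were small accessory subunits. Uqcr10 stood at 9.65, 9.47, 9.25 and 9.22 in fasted heterozygotes and 9.53, 9.66, 9.55 and 9.75 in fasted mutants, a difference of 0.23 ± 0.10 (adjusted p = 0.14, limma) with overlapping groups. Uqcr11 stood at 10.82, 10.79, 10.76 and 10.74 in fasted heterozygotes and at 10.14, 10.48, 10.68 and 10.76 in fasted mutants. Its difference was -0.26 ± 0.12 (adjusted p = 0.15, limma), and the spread lay in the mutants, where fasted mutant 1 was lowest. Cyc1, the cytochrome c1 subunit of complex III, differed by 0.04 and 0.10 between genotypes and was not called.

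Cycs, the cytochrome c that carries electrons from complex III to complex IV, stood at 12.44, 12.41, 12.15 and 12.06 in unfasted mutants. It stood at 12.78, 12.92, 12.54 and 12.63 in fasted mutants, with no overlap. Cycs rose with fasting in mutants by 0.45 ± 0.11 (SE; adjusted p = 0.035, limma). The call was lost without unfasted mutant 3 or 4, fasted mutant 1, 2 or 4, or fasted heterozygote 2, and the adjusted p was 0.062 without fasted mutant 1. In heterozygotes the fasting difference was 0.11 ± 0.11 (adjusted p = 0.79), and the difference between the genotypes' responses was 0.34 ± 0.15 (adjusted p = 0.45, limma), so they were not shown to differ.

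Complex IV, cytochrome c oxidase, had no called gene among 17. Its medians were 0.027 between unfasted and 0.019 between fasted genotypes, and 0.013 and 0.030 with fasting in heterozygotes and mutants. Among the 17, Cox7b2 (5.24), Cox6b2 (6.66), Cox8b (6.95) and Cox8c (7.16) averaged below the array medians of 7.33 to 7.40. Cox7a1 (7.46) and Cox4i2 (7.50) averaged just above them. A change in such dim genes could be missed, and whether they are expressed here was not tested. Cox4i1, the common isoform of subunit 4, had the highest genotype difference of the complex in unfasted mice. It stood at 10.87, 10.92, 10.90 and 11.06 in unfasted heterozygotes and at 11.29, 10.83, 11.40 and 11.42 in unfasted mutants. Unfasted mutant 2 lay below all 4 heterozygotes and the other 3 lay above them. The difference was 0.30 ± 0.12 (adjusted p = 0.15, limma), and Cox4i1 was called without unfasted mutant 2 (adjusted p = 0.019). In fasted mice it stood at 11.56, 11.20, 11.02 and 11.16 in heterozygotes and at 11.39, 11.38, 11.40 and 11.39 in mutants, a difference of 0.15 ± 0.12. Cox4i2, the isoform known from lung, stood between 7.33 and 7.66 on all arrays. Cox7a2l, which helps join complexes III and IV into supercomplexes, stood at 9.41, 9.21, 9.19 and 9.31 in unfasted and at 9.44, 9.47, 9.45 and 9.47 in fasted heterozygotes, a difference of 0.18 ± 0.07 without overlap that was not called (adjusted p = 0.24, limma).

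The muscle and brown fat isoform Cox8b had a level set by 1 array. It stood at 7.69 in fasted mutant 1 and between 6.82 and 6.99 on the other 15 arrays. Its fasted genotype difference was 0.17 ± 0.13, and -0.03 without fasted mutant 1. On the same array 4 of the 6 adipocyte markers were the highest of all arrays, and Lep and Cidea were not. The striated muscle markers averaged 7.07 to 7.21 on all arrays. The other muscle isoforms gave Cox6a2 levels of 7.82 to 8.11 and Cox7a1 levels of 7.25 to 7.61 over all arrays, with Cox7a1 at 7.61 in fasted mutant 1. The ubiquitous isoforms Cox6a1 and Cox8a differed between unfasted genotypes by 0.00 ± 0.10 and 0.09 ± 0.06.

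Complex V, the ATP synthase, had the highest median between fasted genotypes, 0.072, with 12 of its 17 genes higher in mutants; in unfasted mice the median was 0.030, again with 12 of 17 higher. The median over all genes was 0.005 in unfasted and -0.022 in fasted mice. In fasted heterozygote 4, 0 of the 17 genes were above their group mean, against 48.9% of all genes. The mean deviation of complex V was -0.106 there, against 0.046, -0.024 and -0.06 in fasted heterozygotes 1, 2 and 3. The 17 values on 1 array are not independent, and the cause of the low values there was not tested. The catalytic head had small differences with small errors. Atp5a1, the alpha subunit, differed by 0.09 ± 0.04 in both states (adjusted p = 0.22 unfasted and 0.17 fasted, limma). Atp5b, the catalytic beta subunit, differed by 0.08 and 0.09, Atp5c1, the gamma subunit, by 0.09 ± 0.05 and 0.07 ± 0.05, and Atp5d, the delta subunit, by 0.07 ± 0.04 in both. Atp5a1 read 12.50 on all 4 unfasted heterozygous arrays and 12.69, 12.58, 12.53 and 12.57 in unfasted mutants, without overlap. Atp5e, the epsilon subunit, differed in the other direction, by -0.06 and -0.08. None of these 5 genes was called.

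Atp5g1 encodes the c subunit, which forms the rotating ring in the membrane, and Atp5g2 and Atp5g3 encode the same mature protein. Atp5g1 stood at 12.02, 11.98, 12.02 and 11.71 in fasted heterozygotes and at 12.05, 12.23, 12.19 and 12.17 in fasted mutants. All mutants were above all heterozygotes, and fasted heterozygote 4 was the lowest array. The difference was 0.23 ± 0.07 (SE), a 1.17-fold change, with an adjusted p of 0.043 in limma. Without fasted heterozygote 4 the adjusted p was 0.13, and the call was also lost without unfasted heterozygote 1, 2 or 4, fasted mutant 2, 3 or 4 or fasted heterozygote 2. It was lost too in a fit of only the arrays compared and after a second quantile normalization. In unfasted mice the difference was 0.11 ± 0.07 (adjusted p = 0.43). Atp5g2 stood at 11.70, 11.61, 11.58 and 11.59 in fasted heterozygotes and at 11.84, 11.76, 11.72 and 11.91 in fasted mutants, again without overlap, and its difference of 0.19 ± 0.07 was not called (adjusted p = 0.095, limma). Atp5g3 differed by 0.09 (adjusted p = 0.44).

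**Figure D2:**
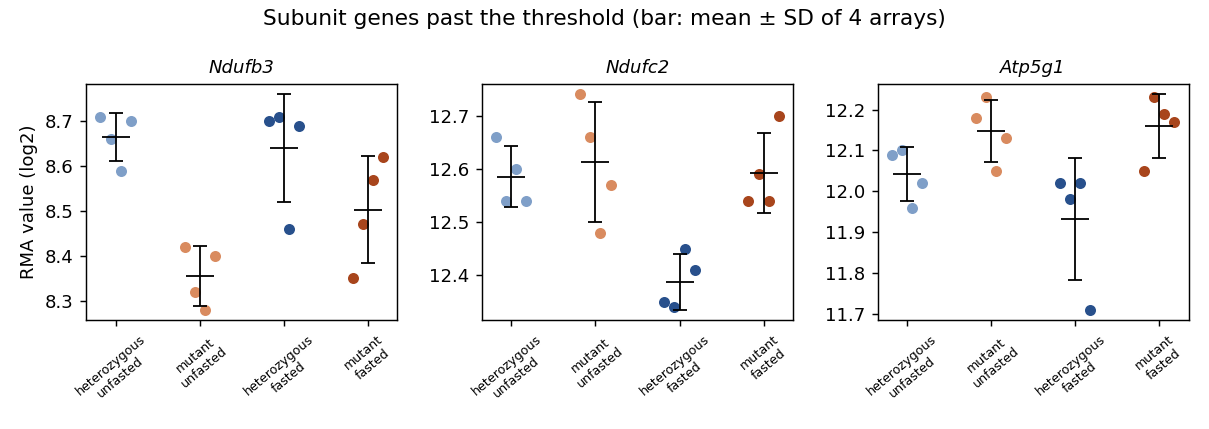
RMA log2 levels of Ndufb3, Ndufc2 and Atp5g1 on each array (points) in the 4 groups, with the mean and SD of 4 arrays as bars; vertical axes differ and do not start at 0. For Ndufb3 the 4 unfasted mutants are below the 4 unfasted heterozygotes, and the 4 fasted heterozygotes are below the 4 fasted mutants for Ndufc2 and Atp5g1.

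The widest errors in complex V belonged to Atp5k, the e subunit of the membrane part. It stood at 9.78, 9.65, 9.03 and 9.49 in unfasted heterozygotes and 9.79, 9.58, 9.73 and 10.23 in unfasted mutants. In fasted mice it stood at 9.56, 9.35, 8.95 and 9.25 in heterozygotes and 9.30, 9.45, 9.37 and 9.61 in mutants. Atp5k differed by -0.40 ± 0.16 with fasting in mutants (adjusted p = 0.17, limma), the lowest fitted difference of any subunit. The lowest array was at 9.03 in unfasted and at 8.95 in fasted heterozygotes. Atp5md, a small membrane subunit, differed by -0.20 ± 0.10 between unfasted genotypes (adjusted p = 0.24), and Atp5j, of the peripheral stalk, by -0.13 ± 0.07 (adjusted p = 0.26).

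The promoters of the 3 called genes are shown because these are the subunits whose level passed the test. RefSeq promoter sequences, from 250 bases before to 50 after the start on GRCm38.p6, were matched for 66 of the 81 subunit genes. Ndufb3 lies at chr1:58586147-58586446 on the plus strand, Ndufc2 at chr7:97399753-97400052 on the plus strand and Atp5g1 at chr11:96075582-96075881 on the minus strand, and each is given 5′ to 3′ on the gene's strand. None of the 3 held the letters searched for, and this says only that those letters are not in these windows.
Ndufb3: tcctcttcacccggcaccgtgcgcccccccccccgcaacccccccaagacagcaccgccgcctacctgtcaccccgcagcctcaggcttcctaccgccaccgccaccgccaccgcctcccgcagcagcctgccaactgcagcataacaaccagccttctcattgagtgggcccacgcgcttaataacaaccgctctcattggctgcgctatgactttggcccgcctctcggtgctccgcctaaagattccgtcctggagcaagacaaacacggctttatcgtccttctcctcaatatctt
Ndufc2: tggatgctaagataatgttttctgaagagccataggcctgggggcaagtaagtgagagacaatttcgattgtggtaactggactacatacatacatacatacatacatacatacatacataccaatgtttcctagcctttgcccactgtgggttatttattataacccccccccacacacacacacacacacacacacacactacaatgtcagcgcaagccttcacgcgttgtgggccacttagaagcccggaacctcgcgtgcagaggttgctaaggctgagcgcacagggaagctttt
Atp5g1: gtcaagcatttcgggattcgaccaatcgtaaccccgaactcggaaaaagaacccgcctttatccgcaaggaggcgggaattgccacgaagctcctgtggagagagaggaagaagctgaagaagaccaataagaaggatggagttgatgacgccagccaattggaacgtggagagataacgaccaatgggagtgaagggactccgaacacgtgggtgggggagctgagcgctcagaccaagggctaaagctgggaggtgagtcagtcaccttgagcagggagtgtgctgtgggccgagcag

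Letters known for regulators of these genes were searched on both strands: the NRF1 motif, whose matches are in capitals below, CCGGAAGT for the ETS family, AAGATGGC for YY1 and TCAAGGTCA for the estrogen-related receptors. The NRF1 letters stood in 16 of 66 subunit promoters (24.2%) against 5.19% of the promoters of 27025 genes, the ETS letters in 5 (7.58%) against 4.31%, the YY1 letters in 10 (15.2%) against 3.19% and the receptor letters in 2 (3.03%) against 0.466%. The median GC content was 57.3% in subunit promoters and 52.7% in all. The NRF1 letters stood in 6 of 15 matched promoters of complex V, 6 of 31 of complex I, 2 of 3 of complex II, 1 of 5 of complex III and 1 of 12 of complex IV. The median genotype difference of the 16 genes with the letters was 0.06 in unfasted and 0.08 in fasted mice, and for the 50 genes without them it was 0 in both. The ranges overlapped, at -0.16 to 0.35 and -0.18 to 0.19 with the letters and -0.31 to 0.23 and -0.26 to 0.23 without. With fasting in heterozygotes and mutants the medians were -0.03 and 0 with the letters and 0 and 0.02 without. Complex V, with 6 of the 16 genes, also had the highest fasted genotype median (0.072). Letters and complex were not separated, and a link of the letters to the differences was not tested. Of the called subunits, 0 had the letters, and 1 (unfasted) and 2 (fasted) did not. The 6 windows of complex V show how the match sits, with the NRF1 letters or their reverse complement in capitals. All 6 genes are on the minus strand of GRCm38.p6, with the windows of Atp5c1 at chr2:10080420-10080469, Atp5g2 at chr15:102671060-102671109, Atp5g3 at chr2:73911285-73911334, Atp5h at chr11:115420031-115420080, Atp5k at chr5:108434420-108434469 and Atp5o at chr16:91931592-91931641.
Atp5c1: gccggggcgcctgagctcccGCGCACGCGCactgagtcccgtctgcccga
Atp5g2: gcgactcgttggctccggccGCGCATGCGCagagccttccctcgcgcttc
Atp5g3: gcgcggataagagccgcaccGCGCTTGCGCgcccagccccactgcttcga
Atp5h: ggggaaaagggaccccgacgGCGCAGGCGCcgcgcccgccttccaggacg
Atp5k: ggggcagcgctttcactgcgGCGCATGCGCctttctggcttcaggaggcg
Atp5o: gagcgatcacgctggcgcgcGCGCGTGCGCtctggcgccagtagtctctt

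Although the group means were level, the average over the subunits moved from array to array. For each array the deviation of every subunit from its own mean over 16 arrays was averaged over the 81 genes. The group means of this value were -0.004 (SD 0.039) in unfasted heterozygotes, 0.005 (SD 0.074) in unfasted mutants, -0.007 (SD 0.046) in fasted heterozygotes and 0.006 (SD 0.067) in fasted mutants. The unfasted mutants ran from -0.081 in replicate 3 to 0.1 in replicate 1, and the fasted mutants from -0.087 in replicate 1 to 0.073 in replicate 4. In unfasted mutant 1, 62 of 81 subunits were above their group mean, while 38% of all genes were. In fasted mutant 1, 15 of 81 were above it, while 46.2% of all genes were. Shifts of this kind were seen in both genotypes. The count was 62 in unfasted heterozygote 1, 64 in fasted mutant 4, 59 in fasted heterozygote 1 and 13 in fasted heterozygote 4. The shares of all genes were 48.1%, 56.9%, 54.6% and 48.9% in the same order. The range over 4 arrays for complex I was 0.245 in unfasted and 0.225 in fasted mutants, against 0.092 and 0.1 in heterozygotes. In fasted mutant 1 complexes I, II, III and V stood at -0.131, -0.192, -0.128 and -0.064 and complex IV at 0.025, with 8 of its 17 genes above their group mean. The range of complex IV was 0.111 and 0.049 in mutants against 0.064 and 0.086. Without unfasted mutant 1 the unfasted genotype medians of complexes I to V were -0.062, -0.006, 0, -0.006 and 0.004, and without fasted mutant 1 the fasted ones were 0.038, 0.049, 0.068, -0.001 and 0.091. Unfasted mutant 1 had the raised pancreatic markers, and fasted mutant 1 and fasted heterozygote 4 had the highest adipocyte marker means. In fasted heterozygote 4 that marker mean rested on Cidea and Retn, and the other adipocyte markers were not raised. The mean over the 81 subunits was -0.062 on that array, the lowest of its group. The part of those markers was not tested.

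**Figure D3:**
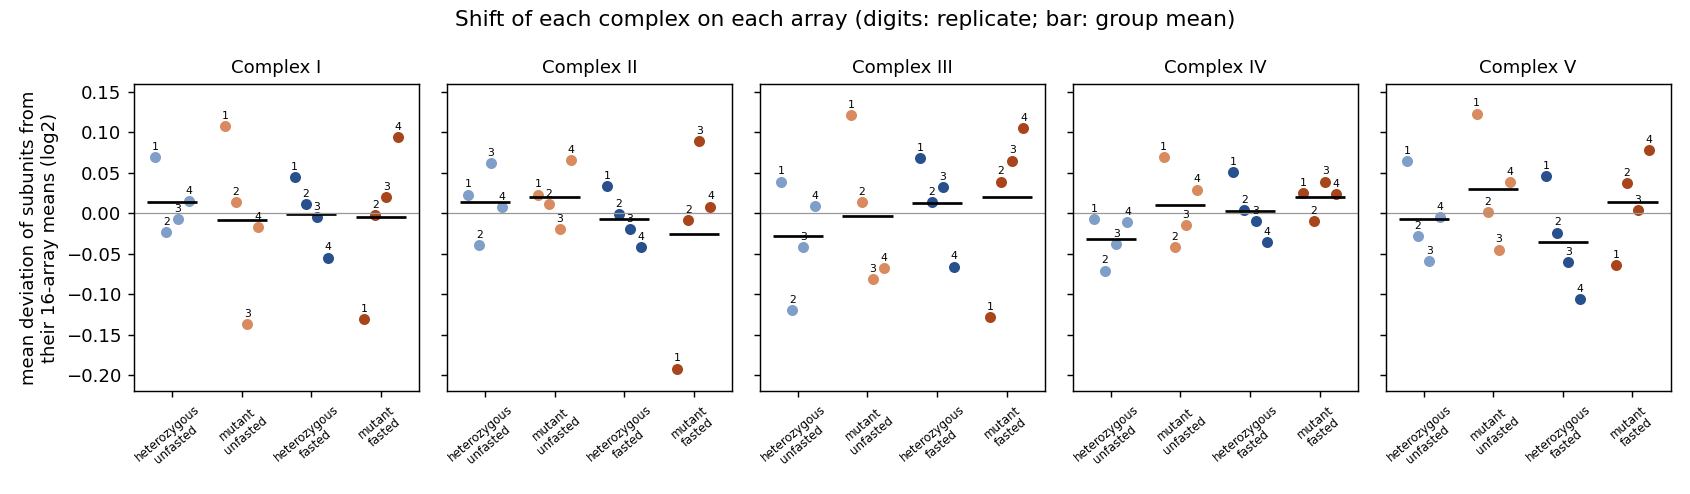
Mean deviation of the subunits of each complex from their 16-array means (log2, vertical axis) on each array, with the replicate number above the point and the group mean as a bar. In complex I the mutant arrays span 0.245 and 0.225 and the heterozygous arrays 0.092 and 0.1.

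Single subunits also spread between animals. The median within-group SD of the 81 genes was 0.074 in unfasted and 0.066 in fasted heterozygotes, and 0.121 and 0.107 in mutants. Over all genes these medians were 0.075 and 0.072 in heterozygotes and 0.107 and 0.085 in mutants. The difference in spread was not tested.

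The genotype differences of the same genes in unfasted and in fasted mice rest on different arrays and can be set side by side. Of 81 subunits, 35 were higher and 26 lower in mutants in both states, which is 75.3% with the same sign, against 63.6% of all genes. Across the 81 genes the Pearson correlation was 0.59 and the Spearman correlation 0.63, against 0.73 and 0.50 over all genes. These are descriptions, since genes on 1 array share its shift. Cox4i1 and Atp5k had the largest positive differences in unfasted mice and were positive in fasted mice, and Ndufb3 was negative in both.

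**Figure D4:**
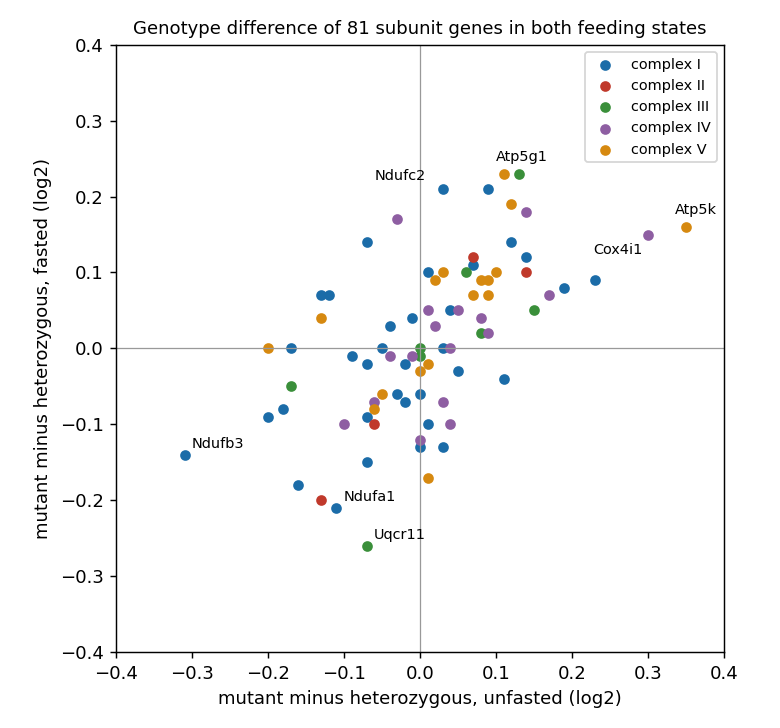
Each point is 1 subunit gene, coloured by complex, with the log2 genotype difference in unfasted mice on the horizontal axis and in fasted mice on the vertical axis. Points in the upper right (35 genes) and lower left (26 genes) have the same sign in both states.

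For 16 of the subunit genes the array had more than 1 probe set, and the others can be set beside the chosen one. Their correlations with it over the 16 arrays ran from 0.59 (Atp5pb) to 1 (Atp5g1). Sequence shared between probe sets was not examined, so they may not be independent measurements. The 24 other probe sets differed from the chosen one by at most 0.13, 0.06, 0.10 and 0.17 over the 4 comparisons, and 22, 22, 21 and 20 of 24 had the same sign.

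Regulators of these genes were followed from a list of 13, and the shares of all genes called were 7.94% between unfasted and 13.6% between fasted genotypes and 3.35% with mutant fasting. Ppargc1a encodes the coactivator PGC-1alpha that drives mitochondrial gene expression. Its level was 8.61, 8.56, 8.48 and 8.66 in unfasted heterozygotes and 9.02, 9.40, 9.70 and 8.89 in fasted heterozygotes, without overlap. Ppargc1a stood at 8.70, 8.41, 8.93 and 9.57 in unfasted mutants and at 10.99, 10.24, 10.14 and 9.58 in fasted mutants, with fasted mutant 1 the highest of all arrays. Ppargc1a rose with fasting in mutants by 1.33 ± 0.26 (SE), a 2.52-fold change (adjusted p = 0.015, limma), and by 1.08 without fasted mutant 1 (adjusted p = 0.028). It was higher in fasted mutants than in fasted heterozygotes by 0.98 ± 0.26 (adjusted p = 0.023, limma). That call was lost without fasted mutant 1 (0.73, adjusted p = 0.065), fasted mutant 2 or fasted heterozygote 1 or 4. With fasting in heterozygotes the difference was 0.68 ± 0.26 (adjusted p = 0.27). With only the arrays compared, it was called in heterozygotes (adjusted p = 0.048) and not in mutants (adjusted p = 0.11, limma). In the test of the difference, the genotypes' responses of Ppargc1a were not shown to differ (0.66 ± 0.37, adjusted p = 0.50, limma). Gabpb1, a subunit of the ETS factor GABP (NRF2), was higher in fasted mutants by 0.34 ± 0.08 (adjusted p = 0.010, limma), and that call was kept when any 1 array was left out. Pprc1, a coactivator related to PGC-1alpha, was higher in unfasted mutants by 0.40 ± 0.12 (adjusted p = 0.047), a call lost on leaving out any of 10 arrays. Esrra, the nuclear receptor that works with PGC-1alpha, differed by 0.05 ± 0.07 between fasted genotypes, and Tfam, which maintains mitochondrial DNA, by 0.22 ± 0.12, and neither was called.

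**Figure D5:**
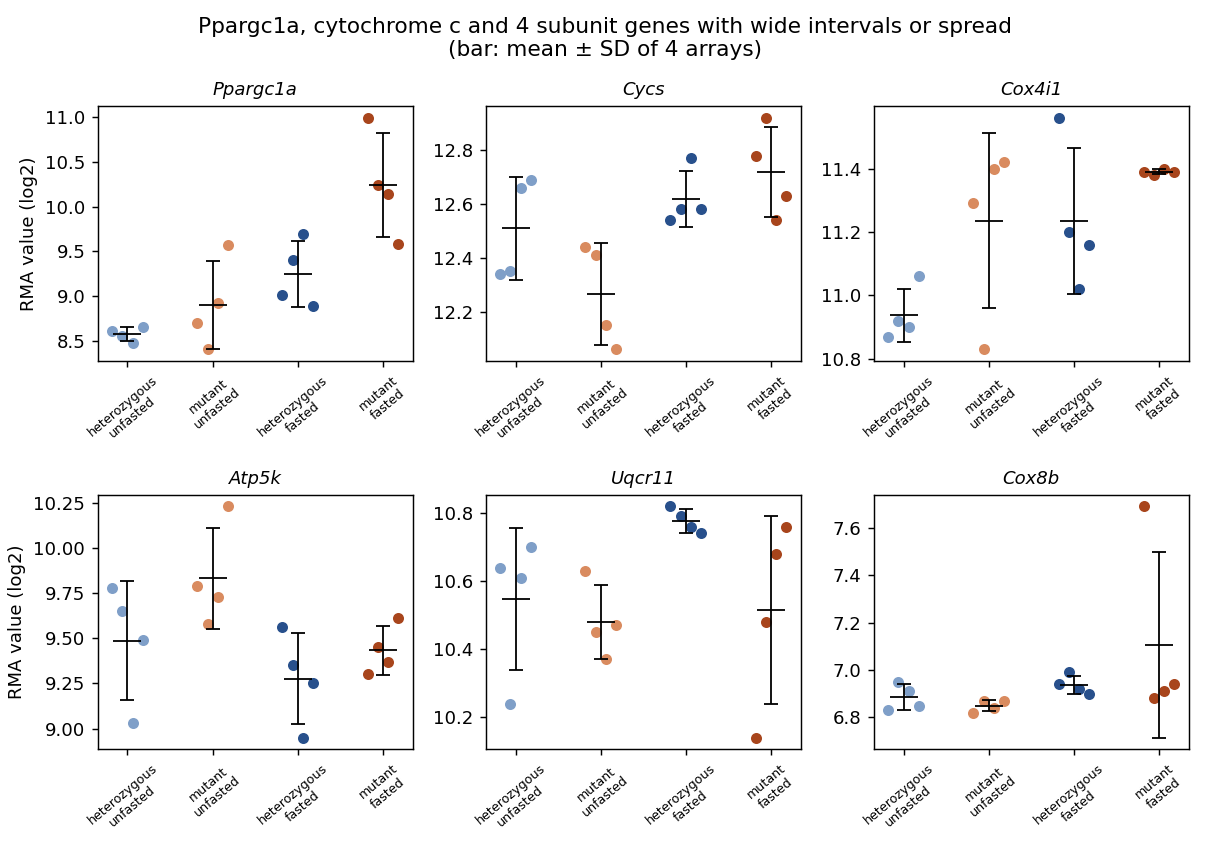
RMA log2 levels on each array (points) of Ppargc1a, Cycs and 4 subunit genes in the 4 groups, with the mean and SD of 4 arrays; vertical axes differ and do not start at 0. Ppargc1a in fasted mutants sits between 9.58 and 10.99, above the unfasted mutants at 8.41 to 9.57. In fasted heterozygotes it sits between 8.89 and 9.7, above the unfasted heterozygotes at 8.48 to 8.66. Cox8b is high only in fasted mutant 1, at 7.69.

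Assembly factors build the complexes without being part of them. Of 16 complex I factors, 2 (beside 3.69% of all genes) were lower in unfasted mutants. Dmac1 had a difference of -0.46 ± 0.10 (adjusted p = 0.013, limma), a call lost without unfasted heterozygote 4. Ndufaf1 had -0.41 ± 0.10 (adjusted p = 0.022), a call lost without unfasted mutant 3 or unfasted heterozygote 3. Between fasted genotypes 0 of 16 were called, where 13.6% of all genes were. The test of the change between feeding states gave 0.50 ± 0.15 for Dmac1 (adjusted p = 0.32, limma). For Ndufaf1 it gave 0.27 ± 0.14 (adjusted p = 0.48), so the states were not shown to differ for either gene. Dmac1 stood at 10.43, 10.20, 10.37 and 10.64 in unfasted heterozygotes and 10.18, 9.94, 9.82 and 9.86 in unfasted mutants. It was also lower in fasted than in unfasted heterozygotes, with a difference of -0.44 ± 0.10 (adjusted p = 0.044), a call lost on leaving out any of 11 arrays. The 4 factors of complex II and the 4 of complex V held no called gene. Of 6 complex III factors 1 was called, where 8.62% of all genes were higher: Lyrm7, which delivers the Rieske protein, was higher in fasted mutants by 0.32 ± 0.07 (adjusted p = 0.0071). Of 20 complex IV factors, 2 were higher and 1 lower in fasted mutants, a share near the 13.6% of all genes called there. Cox10 and Cox15, which make the heme A of cytochrome oxidase, were each higher by 0.26 (adjusted p = 0.0084 and 0.042), and Surf1 was lower, with a difference of -0.24 ± 0.07 (adjusted p = 0.044). The calls of Lyrm7 and Cox10 were kept when any 1 array was left out, and those of Cox15 and Surf1 were each lost without any of 8 arrays, Surf1 among others without fasted mutant 1 (adjusted p = 0.13).

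The genes that make and handle ubiquinone, the carrier between complexes I and II and complex III, were followed from a list of 12. Of these, 1 was higher and 2 lower in unfasted mutants, where 7.94% of all genes were called, and 2 were higher and 1 lower in fasted mutants, where 13.6% were. Coq8b, a kinase-like protein of ubiquinone synthesis, stood at 8.36, 8.41, 8.57 and 8.47 in unfasted heterozygotes and 8.68, 8.70, 8.69 and 8.83 in unfasted mutants. It was higher by 0.27 ± 0.06 (adjusted p = 0.0098, limma) in unfasted and by 0.33 ± 0.06 (adjusted p = 0.0022) in fasted mutants, and both calls were kept when any 1 array was left out. Its relative Coq8a was lower, with differences of -0.91 ± 0.27 (adjusted p = 0.049) in unfasted and -0.87 ± 0.27 (adjusted p = 0.043) in fasted mutants. Coq8a stood at 10.78, 11.68, 11.76 and 11.68 in unfasted heterozygotes and 9.90, 10.42, 10.75 and 11.17 in unfasted mutants, and these overlapped. The unfasted call of Coq8a was lost without any of 11 arrays (-0.69, adjusted p = 0.11 without unfasted mutant 1), and the fasted call without any of 9. Pdss2, which makes the ubiquinone side chain, was lower in unfasted mutants, with a difference of -0.26 ± 0.08 (adjusted p = 0.047), a call lost without any of 13 arrays. Coq10b, a ubiquinone-binding protein, was higher in fasted mutants by 0.69 ± 0.22 (adjusted p = 0.045), a call lost without any of 11. Coq3, a methyltransferase of the pathway, rose with fasting in mutants by 0.48 ± 0.10 (adjusted p = 0.023), a call lost without any of 5.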

How the data were processed

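Total RNA (300 ng per liver) was hybridised to Affymetrix MoGene-1_0-st-v1 arrays, per the labels' protocols. The deposited values are log2 expression values of 35556 probe sets, made by the authors with Affymetrix Expression Console and RMA, per the submitters' processing notes; RMA corrects background and equalises array distributions, so a shift of all genes would not be seen. Depth does not apply to arrays, and 4 arrays per group limit the precision. Array medians were 7.33 to 7.40.

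Probe sets with 1 symbol (21789; 1621 had several and 12146 none) were named from the platform annotation, updated through the RefSeq gene table for 21698 and kept for 91. The probe set with the highest mean represented a gene. Probe sets shared with another gene (6 here: Cox7c, Ndufb4 and Ndufs5 with copies) and mitochondrially encoded subunits are not analysed here. Groups come from the sample titles. limma 3.58.1 in R 4.3.3 fitted 4 group means to 16 arrays (eBayes with trend, two-sided, Benjamini-Hochberg over 19938 genes). The fitted differences were checked on simulated data in which genes varied independently. That is not a check of the calls here, where subunits moved together on an array. The text names called subunits, the extremes of each complex and comparison, isoform pairs and called members of the pathway lists. Members and lists were chosen with earlier results of these data known. Alternatives covered the array set, weights, scaling, variance moderation, probe sets, brightness, threshold, replicate block and each array left out.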

Additional observations from a re-analysis of the deposited data

Results flagged for a closer look

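In groups of 4 arrays, a value was marked when its gap to the nearest array exceeded Dixon's 95% critical share of the group's range. A value was marked in 18 of 312 sets, each set being 1 gene or complex mean in 1 group of 4 arrays. By chance about 1 set in 20 is marked. In fasted heterozygotes, replicate 4 was lowest for Atp5g1 (11.71, others 11.98 to 12.02), Atp5c1 (12.20, others 12.29 to 12.31) and Sdhd (11.39, others 11.49 to 11.51). Replicate 3 of that group was lowest for Ndufb3 (8.46, others 8.69 to 8.71) and highest for Ndufv2 (11.71, others 11.57 to 11.58) and Cycs (12.77, others 12.54 to 12.58), and replicate 1 was highest for Pprc1 (8.21, others 7.81 to 7.87). In unfasted heterozygotes, replicate 1 was highest for Atp5g3 (12.59, others 12.28 to 12.31) and Coq10b (10.40, others 9.68 to 9.72) and lowest for Coq8a (10.78, others 11.68 to 11.76). Replicate 2 of that group was lowest for Mmut (9.66, others 9.86 to 9.89), replicate 3 highest for Cox7b2 (5.32, others 5.19 to 5.21) and replicate 4 lowest for Lyrm7 (6.43, others 6.57 to 6.59).

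In fasted mutants, replicate 1 was highest for Cox8b (7.69, others 6.88 to 6.94) and replicate 4 for Ndufa7 (10, others 9.65 to 9.66). In unfasted mutants, replicate 2 was lowest for Sdhd (11.49, others 11.54), replicate 3 lowest for Cyc1 (11.11, others 11.36 to 11.41) and replicate 4 highest for Coq8b (8.83, others 8.68 to 8.70).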

How the results depend on the processing

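Of 620 alternative values of the complex medians, 614 moved by less than the spread between replicates, and the largest shift was 0.085. Many of the 620 could not move. The replicate block, the variance settings, a fit of only the arrays compared and the loss of an array outside a comparison leave its differences unchanged. Leaving out 1 of 4 arrays also moves a group mean by less than that spread in most cases, so the count does not measure stability. A second quantile normalization moved the complex IV median to -0.019 (fasted genotype), -0.006 (mutant fasting) and -0.056 (interaction), and took Ndufv2 to -0.06 and Cox7a2l to 0 between fasted genotypes and Cox7b to -0.08 in the interaction. Subunits called in the unfasted and fasted genotype comparisons numbered 0 and 0 at an adjusted p under 0.01, beside 2.31% and 4.98% of all genes. Between fasted genotypes they numbered 1 with only the arrays compared, beside 15.2% of all genes, and 4 with array weights, beside 19.3%. Array weights also gave 1 with fasting in heterozygotes, beside 5.16% of all genes, and Ndufc1 at 0.02 between unfasted genotypes. Genes called among all were 764, 568 and 33 with only the arrays compared (unfasted genotype, heterozygous fasting, mutant fasting), 1029 with array weights in heterozygous fasting, and 461, 993, 73 and 79 at 0.01. In the interaction they were 1 with array weights, 1 with arrays centred on their medians, 0 with robust moderation, 0 for brighter genes and 0 at 0.01. Averaging probe sets took Cycs to -0.01 with fasting in heterozygotes. A fit of only the arrays compared also ended the calls of Cycs, Coq3 and Ppargc1a with mutant fasting, of Dmac1, Ndufaf1, Coq8a, Coq8b, Pdss2 and Pprc1 between unfasted genotypes and of Surf1 and Atp5g1 between fasted ones, and added Ppargc1a with heterozygous fasting (adjusted p = 0.048, limma). Second quantile normalization ended Atp5g1, Cox15 and Coq10b (fasted) and Coq8a (unfasted), median centring Surf1 (fasted), Pdss2 and Pprc1 (unfasted) and Dmac1 (heterozygous fasting), robust moderation Coq8a (both) and Coq10b, no variance trend Coq8a (unfasted), and array weights Cycs. The cause of these changes was not tested.

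Leaving out 1 array gave 698 to 1781 and 1575 to 3180 genes called between unfasted and fasted genotypes, 155 to 358 and 224 to 1941 with fasting in heterozygotes and mutants (1941 without unfasted mutant 1), and 0 to 6 in the interaction. Subunits called ran from 1 to 2 and from 0 to 3 between unfasted and fasted genotypes. The complex II median ran from -0.107 to 0.027 with mutant fasting and from -0.057 to 0.032 in the interaction, and the complex IV median from -0.021 to 0.038 with mutant fasting. Cox6b1 ran from -0.01 (without unfasted mutant 1) to 0.14 between unfasted genotypes, Cox6b2 from -0.02 (without fasted mutant 3) to 0.11 between fasted genotypes and with mutant fasting, and Cox8b from -0.03 (without fasted mutant 1) to 0.24 between fasted genotypes. An uncalled value was taken as reversed where it changed sign by more than 1 SE. Same-numbered arrays deviated together (correlation over 0.1) in 9 of 24 pairs, with correlations from -0.12 to 0.25. Arrays with different numbers were not compared, so this cannot show whether the numbers pair the mice. With the replicate number as a block, subunits called were 1, 2, 0, 0 and 0, and genes called 1672, 2739, 383, 644 and 2; the block ended the calls of Cycs with mutant fasting and of Pdss2 between unfasted genotypes, and added Pprc1 between fasted genotypes (0.29, adjusted p = 0.035, limma).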
